A study of Mus musculus with 18 samples.

Results

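This comparison sets cultured mouse keratinocytes that lack the miR-200 family (miR-200 double knockout, DKO) against cultures that keep it, by which miRNAs were found ligated to which target RNAs. The members are the 2 pooled read lists of sample set 2: 3 DKO libraries, and 3 control libraries from cells carrying an inducible miR-200 construct that had not been induced. They make up 6 of the 18 libraries and 2 of the 5 pools of the series, which was made by CLEAR-CLIP, a method that crosslinks Argonaute 2 to RNA, joins each bound miRNA to the target fragment beside it and sequences the joined molecule. No doxycycline was given to either group. The third group of set 2 held the same inducible cells after 3 ug/ml doxycycline for 24 hours, and set 1, run on another flow cell, held its own DKO cells and a control with K14-Cre alone; both serve here only as side values. Cells were grown in a low calcium medium and crosslinked with UV light (254 nm, 300 mJ/cm2), and 1 dish gave 1 library. The labels do not say which promoter drives the inducible construct, whether a culture is 1 clone, or whether the DKO and control cultures of set 2 came from the same animals, so the knockout and any other difference between these cultures cannot be told apart.

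A miRNA is a short RNA that guides Argonaute to messenger RNAs, mostly by pairing of its seed, bases 2 to 8, and lowers their stability and translation. The miR-200 family, made from one cluster on chromosome 4 and another on chromosome 6, is known for keeping epithelial cells epithelial, in large part by restraining the transcription factors Zeb1 and Zeb2. In a chimeric read the miRNA and the target are both known, so a change of a share can follow the miRNA, the target RNA or their joining. In bulk cultures, fewer cells with a molecule and less of it per cell cannot be told apart.

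The sequences below are the mature miRNAs that the results turn on, from RefSeq (GRCm38.p6, the mm10 build), 5′ to 3′, with the seed in capitals. The first 5 are the family that was deleted. They carry 2 seeds that differ in 1 letter, AAUACUG and AACACUG.
miR-200b-3p: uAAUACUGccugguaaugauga
miR-200c-3p: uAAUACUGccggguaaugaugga
miR-429-3p: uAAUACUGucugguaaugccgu
miR-200a-3p: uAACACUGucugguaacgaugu
miR-141-3p: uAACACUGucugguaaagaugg

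The next set held a larger share of chimeras in the DKO pool. miR-27a and miR-27b share a seed, as do miR-196a and miR-196b, and miR-181a and miR-181b.
miR-27a-3p: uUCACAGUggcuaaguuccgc
miR-27b-3p: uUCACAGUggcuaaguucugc
miR-23a-3p: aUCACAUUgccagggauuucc
miR-24-3p: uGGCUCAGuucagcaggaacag
miR-205-5p: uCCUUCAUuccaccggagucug
miR-196a-5p: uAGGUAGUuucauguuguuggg
miR-196b-5p: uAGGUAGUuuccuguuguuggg
miR-181a-5p: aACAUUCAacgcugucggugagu
miR-181b-5p: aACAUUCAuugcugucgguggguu

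The last set held a smaller share in the DKO pool. miR-29a and miR-29b share the seed AGCACCA.
miR-29a-3p: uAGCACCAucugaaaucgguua
miR-29b-3p: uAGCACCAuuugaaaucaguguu
miR-125b-5p: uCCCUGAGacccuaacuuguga
miR-31-5p: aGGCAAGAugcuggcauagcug
miR-193a-3p: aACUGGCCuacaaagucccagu
miR-365-3p: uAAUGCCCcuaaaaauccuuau
miR-96-5p: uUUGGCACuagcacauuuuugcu
miR-182-5p: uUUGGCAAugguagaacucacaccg
miR-183-5p: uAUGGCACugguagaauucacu

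The control pool held 314071 chimeric reads and the DKO pool 210003. As a check of the labels, the family took 20967 reads (6.68%) in control and 755 reads (0.360%) in DKO. Of these 755 reads, 90.5% had the same position, strand, miRNA and barcode as a read of another pool of the lane; 72 were left without them. Among all other miRNAs such shared reads made up 9.87% of control and 9.85% of DKO reads. Family reads were then taken out of the totals, which left 293104 and 209248 reads, and every share below is a percent of these. Since no file names its libraries, each group is 1 pooled sample: there is no spread between replicates, no test and no p-value, and the intervals given are exact 95% intervals that cover counting error only. A miRNA or gene is called higher or lower where its share differs by at least 1.5-fold, the interval of the ratio excludes 1 and the pools together hold at least 50 reads; for miRNA-gene pairs the minimum is 30 reads.

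The cells read as keratinocytes in both pools. Of 13 basal keratinocyte genes, 12 had reads, with Krt14 at 139 and 204 reads (control, then DKO), Krt5 at 127 and 100 and Trp63 at 203 and 146. The 9 fibroblast genes together had 10 and 0 reads, the 8 immune genes 0 and 1, the 6 endothelial genes 8 and 7, and the 7 melanocyte genes 8 and 21, of which 7 and 19 lay on Mitf. The cultures differed in Y-linked targets. Ddx3y, Eif2s3y, Kdm5d and Uty together had 138 reads in control and 5 in DKO, a ratio of 0.0508 (0.0162 to 0.121), with 202 in the induced pool. In set 1 the same 4 genes had 43 reads in control and 1 in DKO. The part of this difference in the results below was not tested.

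Outside the deleted family, many miRNAs differed. Of 254 miRNAs with enough reads, 48 were higher in DKO (18.9%) and 51 were lower (20.1%). Among the 107 miRNAs with at least 500 reads, the ratio of DKO to control had an SD of 0.68 on the log2 scale, and 14 differed 2-fold or more. Induced against uninduced cells, a comparison that shares the control pool, had an SD of 0.13 over 119 miRNAs and 0 that differed 2-fold or more. Those induced and uninduced cells carry the same construct, whereas the DKO cells are other cultures.

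**Figure D1:**
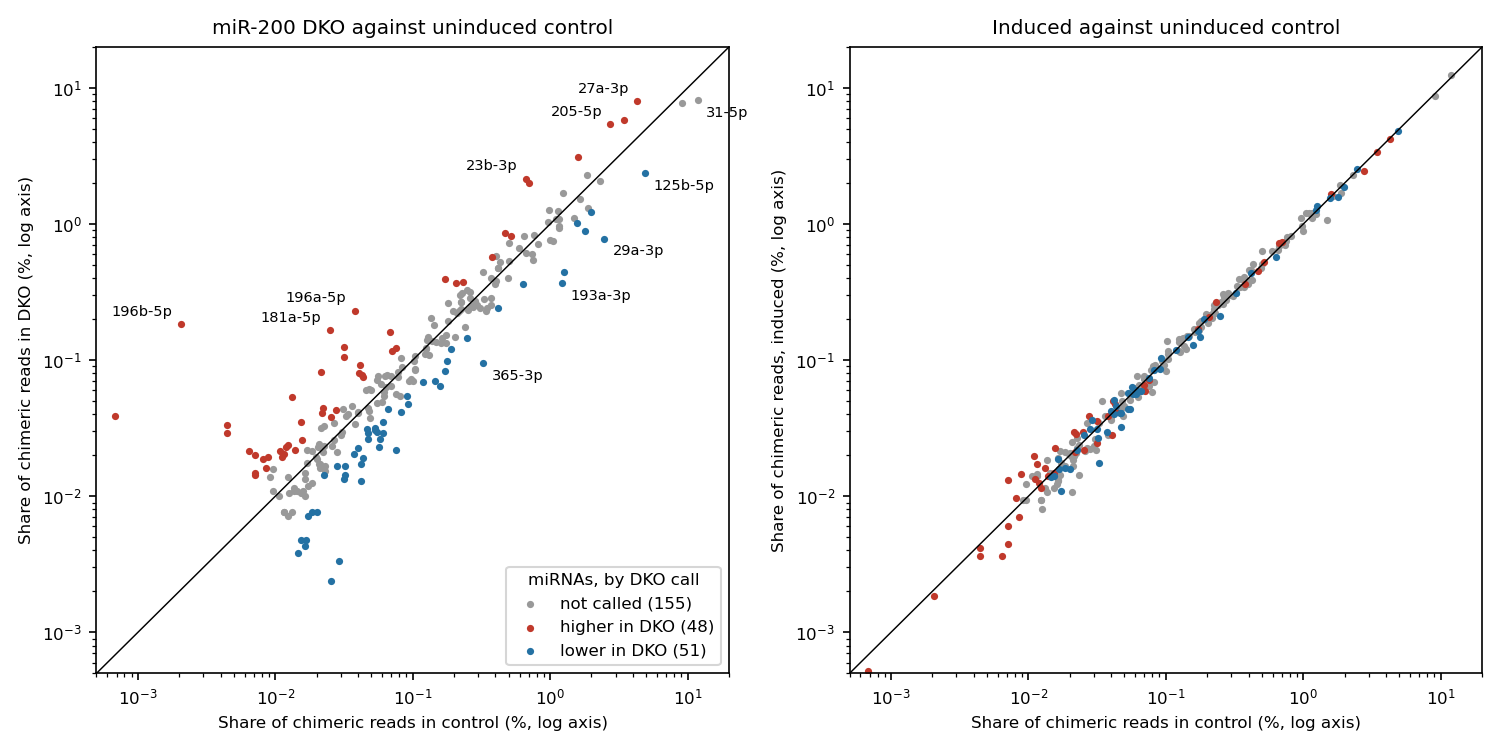
Share of chimeric reads of each miRNA with at least 50 reads, in percent on log axes, with the uninduced control on the horizontal axis and the DKO pool (left) or the induced pool (right) on the vertical axis. Points are miRNAs, red or blue where called higher (48) or lower (51) in DKO in both panels, and the line marks equal shares. The points spread widely about the line on the left and lie close to it on the right, except at the lowest shares.

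The miR-23, miR-27 and miR-24 group stood out among abundant miRNAs. miR-27a-3p had 12648 reads (4.32%) in control and 16689 reads (7.98%) in DKO, 1.85 times the share (1.81 to 1.89). miR-23a-3p went from 3.44% to 5.84% (ratio 1.70, 1.65 to 1.74), and miR-24-3p from 1.60% to 3.09% (1.93, 1.86 to 2.01). The b copies had larger ratios: miR-23b-3p went from 1945 to 4514 reads (3.25, 3.08 to 3.43) and miR-27b-3p from 2063 to 4185 reads (2.84, 2.69 to 3.00). The a and b copies are nearly the same sequence, so reads may be split wrongly between them; both miR-27 copies together, by their shared seed, had a ratio of 1.99 (1.95 to 2.03). The induced pool lay between 0.976 and 1.09 times the control share for these 5 miRNAs. In set 1 their DKO ratios lay between 1.33 and 1.57, where the 59 miRNAs with at least 500 reads had a median of 1.24.

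miR-205-5p, an epithelial miRNA that is abundant in basal keratinocytes, went from 2.75% to 5.41% (1.97, 1.91 to 2.02). Its ratio was 0.896 in the induced pool and 1.34 in set 1, where the median given above was 1.24. miR-135b-5p went from 501 to 826 reads (2.31, 2.06 to 2.59), miR-140-3p from 202 to 335 (2.32, 1.95 to 2.78), miR-708-5p from 63 to 171 (3.80, 2.83 to 5.16) and miR-712-5p from 92 to 221 (3.36, 2.63 to 4.34). All were higher in DKO than in either pool of the inducible cells.

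The widest ratio belonged to miR-196b-5p, which had 6 reads in control, 7 in the induced pool and 384 in DKO, a ratio of 89.6 (40.8 to 246). Its relative miR-196a-5p had 111, 148 and 485 reads (DKO over control 6.12, 4.97 to 7.59). These miRNAs are encoded within the Hox clusters, whose genes set positional identity along the body; the miR-196b hairpin lies on chromosome 6, beside the genes of the Hoxa cluster. Looked at after the miRNA values were seen, Hoxa10 had 0 control and 20 DKO reads, at least 9.34-fold higher when control is set at its floor of 3 reads. Hoxa9 had 9 and 33 reads (5.14, 2.40 to 12.2) and Hoxb6 had 7 and 26 (5.20, 2.20 to 14.2). The Hoxa genes together had 26 and 73 reads (3.93, 2.48 to 6.41), and the Hoxb genes 39 and 55 (1.98, 1.29 to 3.06). In set 1 miR-196b-5p went from 10 to 19 reads (6.12, 2.71 to 14.7), while miR-196a-5p had a ratio of 0.962 (0.708 to 1.29).

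miR-181a-5p went from 73 to 346 reads (6.64, 5.14 to 8.67) and miR-181b-5p from 92 to 261 reads (3.97, 3.12 to 5.10). Their set 1 ratios were 1.26 (0.855 to 1.82) and 0.830 (0.577 to 1.17), so both intervals there include 1.

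Among the lower miRNAs, the miR-29 family, known for restraining collagen and other matrix genes, was abundant in control and far less so in DKO. miR-29a-3p went from 7251 reads (2.47%) to 1635 reads (0.781%), 0.316 times the control share (0.299 to 0.333), and miR-29b-3p from 3683 to 932 reads (0.354, 0.330 to 0.381). miR-29c-3p, with 276 and 148 reads, had a ratio of 0.751 (0.611 to 0.920). The seed family as a whole had a ratio of 0.339 (0.325 to 0.354) against 1.05 in the induced pool and 0.908 (0.794 to 1.04) in set 1.

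miR-365-3p went from 958 to 199 reads (0.291, 0.248 to 0.339) and miR-193a-3p from 3603 to 773 reads (0.301, 0.278 to 0.325). miR-193b-3p, encoded beside one of the miR-365 hairpins, was lower too, at 0.591 times control. miR-125b-5p, among the most abundant miRNAs of these cells, went from 4.88% to 2.36% (0.484, 0.469 to 0.500), and the opposite arm of one of its hairpins, miR-125b-1-3p, went from 177 to 61 reads (0.483, 0.355 to 0.649). miR-31-5p, the most abundant miRNA of all in control, went from 34696 reads (11.8%) to 17042 reads (8.14%), a ratio of 0.688 (0.675 to 0.701) that misses the 1.5-fold rule. miR-21a-5p (0.852), let-7a-5p (0.898) and miR-16-5p (1.23) were not called either.

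The lower group also held miRNAs of fewer reads. miR-669f-3p had 220 and 46 reads (0.293), miR-3102-3p 167 and 48 (0.403), miR-466f 465 and 136 (0.410), miR-466f-5p 169 and 55 (0.456) and miR-669c-5p 423 and 146 (0.483). miR-155-5p, known from immune activation and named after its values were seen, had 85 and 7 reads (0.115, 0.0450 to 0.248), with 54 and 1 in set 1 (0.0597, 0.00148 to 0.347).

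**Figure D2:**
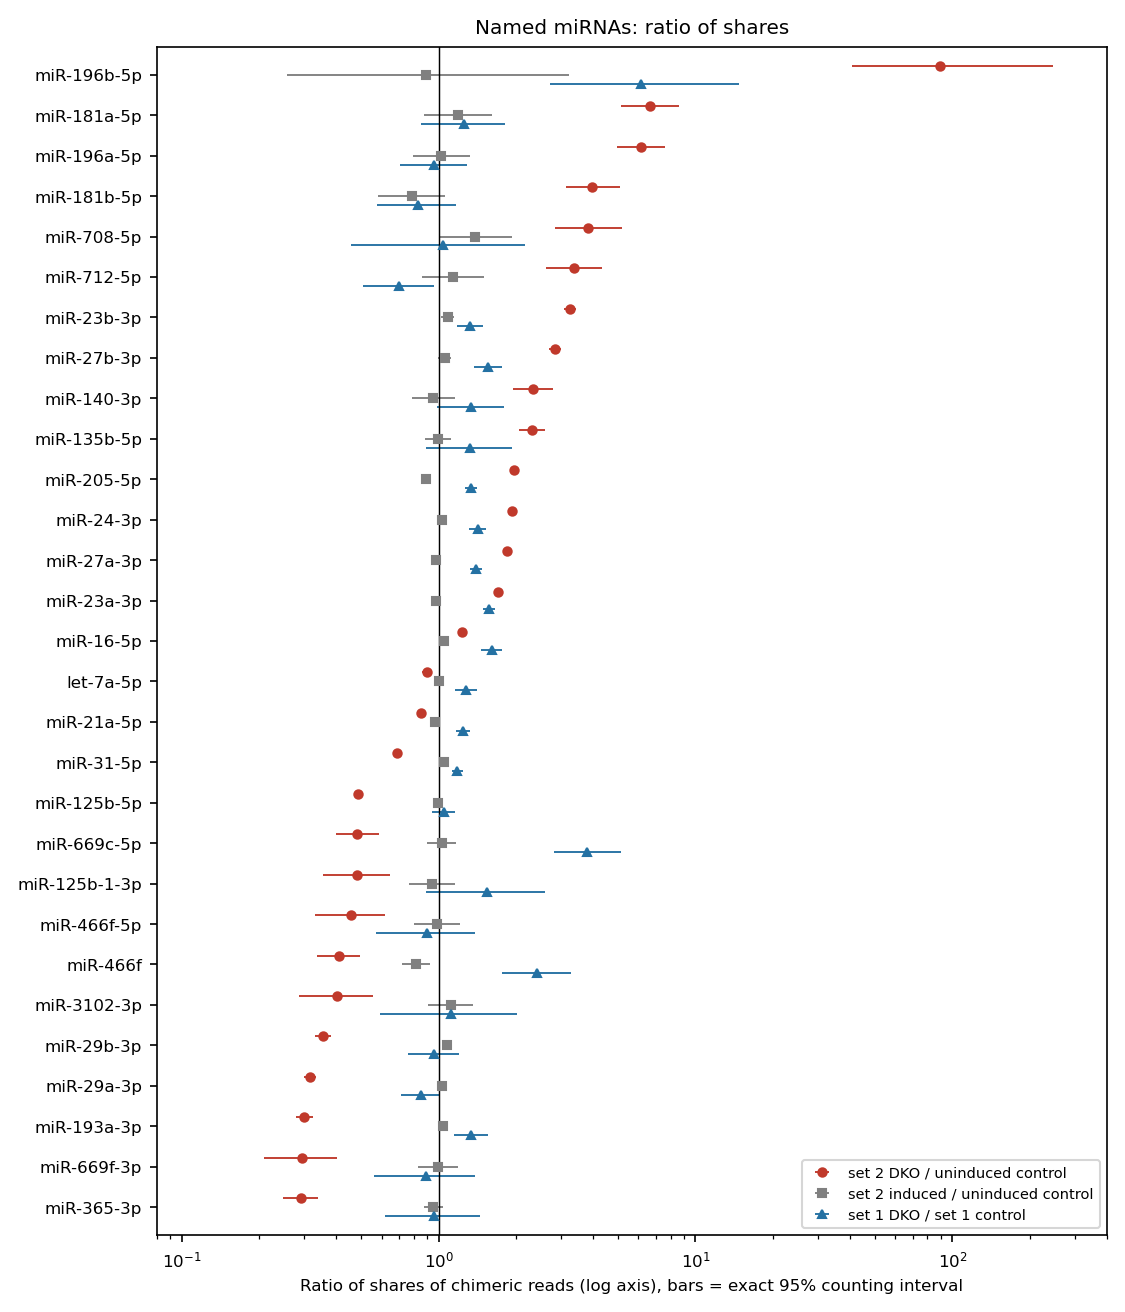
Ratio of shares for each of the 29 named miRNAs on a log axis, with exact 95% counting intervals as bars. Red circles are set 2 DKO over uninduced control, grey squares induced over uninduced control (sharing that control pool), and blue triangles set 1 DKO over its own control. miR-196b-5p is farthest to the right at 89.6 and miR-365-3p farthest to the left at 0.291, while the grey squares stay near 1.

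miRNAs made from one primary transcript can be compared within it, where hairpins lie at most 10 kb apart on 1 strand. The miR-23a, miR-27a and miR-24-2 cluster (chr8:84208518-84208921, plus strand) had 4 of 4 measured miRNAs above 1 and a summed ratio of 1.81 (1.78 to 1.84). The paired miR-23b, miR-27b and miR-24-1 cluster (chr13:63300484-63301275, plus strand) had a summed ratio of 2.21 (2.14 to 2.28), without miR-23b, whose sequence was not matched. Mature miR-24-3p comes from both clusters and its reads are counted in both sums, 4683 of the 6772 control reads in the chromosome 13 sum, so these are not separate values for each transcript. In the miR-183, miR-96 and miR-182 cluster (chr6:30165918-30169737, minus strand), known from sensory epithelia, 0 of 4 were above 1 and the sum stood at 0.586 (0.570 to 0.603). The miR-29a and miR-29b-1 cluster (chr6:31062660-31063093, minus strand) had 0 of 3 above 1 and a sum of 0.329 (0.315 to 0.344), in which the reads of miR-29b-3p may also come from its other locus. The miR-106b, miR-93 and miR-25 cluster (chr5:138165321-138165818, minus strand), a relative of the miR-17-92 cluster, had 5 of 5 above 1 and a sum of 1.47 (1.40 to 1.54). The miR-17-92 cluster itself, known for promoting proliferation, was split, with 4 of 9 above 1 and a sum of 0.949 (0.926 to 0.973). Other clusters were split too. The let-7d, let-7f-1 and let-7a-1 cluster had 1 of 5 above 1, and the miR-30c-1 and miR-30e cluster 2 of 3. On chromosome X the cluster with miR-500, miR-501 and miR-362 had 3 of 7, and that with miR-106a 1 of 3. The remaining clusters were not split, but many had only 2 measured miRNAs. Members of a cluster thus did not always lie on the same side of 1.

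The arms of a hairpin mostly lay on the same side of 1. Of 33 hairpins with enough reads on both arms, this held for 24. Both arms were called in the same direction in 9 and in opposite directions in 0. The miR-24-1 and miR-24-2 hairpins are both among the 24 and the 9 with the same miR-24-3p reads, so they are not separate. miR-30a is an example, at 1.79 (1.61 to 1.99) for the 5p and 2.00 (1.44 to 2.80) for the 3p arm, and miR-674 another, at 0.579 and 0.447.

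A pair of related clusters went in opposite directions. miR-99a-5p had 2 reads in control, 2 in the induced pool and 81 in DKO (56.7, 15.2 to 476), and miR-125b-2-3p, from the same locus, had 1 and 19 reads in control and DKO. Their host RNA, Mir99ahg, had 0 reads in control, 1 in the induced pool and 14 in DKO, at least 6.54-fold higher from the floor of 3 reads. miR-100-5p, from the matching locus on chromosome 9, went from 92 to 28 reads (0.426, 0.269 to 0.657), and its host RNA Mir100hg from 110 to 21 (0.267, 0.159 to 0.429). miR-99a and miR-100 share the seed ACCCGUA, and the whole seed family, with miR-99b, had a ratio of 0.947 (0.855 to 1.05). These members were picked after their values were seen.

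Many target genes differed too. Of 2129 genes with enough reads, 337 were higher in DKO (15.8%) and 328 lower (15.4%), with a median ratio of 1.02. Because a gene's share can move through the miRNAs on it, each gene was also compared at equal miRNA composition: its DKO reads were divided by the number expected if every control chimera of the gene were scaled by the ratio of its miRNA. By that measure 324 of 2128 genes were higher (15.2%) and 337 lower (15.8%). Of the 337 higher genes, 279 kept their call, and of the 328 lower genes, 278 did. Among 291 genes with at least 200 reads, the SD of the log2 ratio was 0.86, and 0.84 at equal composition; over the 477 such genes of the induced comparison it was 0.24.

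Among the higher genes, several encode membrane proteins that receive or hold signals. Dcc, the receptor for the guidance cue netrin, had 3 reads in control, 4 in the induced pool and 103 in DKO (ratio 48.1, 16.0 to 237). Cdh13, a cadherin without a transmembrane part, had 54, 68 and 282 reads (7.32, 5.45 to 9.98). Lgr4, a receptor for R-spondins that strengthens Wnt signalling, had 43, 58 and 191 reads (6.22, 4.45 to 8.88). Flrt2, a leucine-rich adhesion protein, had 66, 104 and 268 reads (5.69, 4.33 to 7.56), and Sorcs2, a sortilin-type receptor, 41, 49 and 140 (4.78, 3.36 to 6.95). In each of these genes the DKO reads far outnumbered both pools of the inducible cells, and spread over many sites: 88 sites in Dcc and 284 in Cdh13.

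Trps1, a GATA-type transcriptional repressor known from hair follicle and skeletal development (chr15:50654757-50890631), had 6, 8 and 164 reads in control, induced and DKO (38.3, 17.2 to 106). In set 1 it had 3 and 8 reads (8.59, 2.06 to 50.3). Galnt18, of the enzyme family that starts O-linked glycosylation, had 28 control and 152 DKO reads (7.60, 5.06 to 11.8), with a set 1 ratio of 0.485 (0.232 to 0.921). Ext1, which polymerises heparan sulfate (chr15:53068261-53346183), went from 187 to 522 reads (3.91, 3.30 to 4.65). All 19 of its miRNAs with at least 10 reads had ratios above 1 on the gene. These are parts of the reads by which the gene was picked, so they are no separate evidence. Sh3rf1, a scaffold of the JNK pathway, went from 75 to 220 reads (4.11, 3.15 to 5.41), Mcc from 47 to 146 (4.35, 3.11 to 6.18) and Fst, the activin-binding protein follistatin, from 27 to 77 (3.99, 2.55 to 6.44). Dsc2, a desmosomal cadherin, went from 64 to 170 (3.72, 2.78 to 5.04), or 4.58 (3.41 to 6.20) at equal composition.

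Ccn2, a matrix-associated protein induced by YAP and TGF-beta (chr10:24595442-24598683), went from 73 to 359 reads (6.89, 5.34 to 8.99), with 81 in the induced pool. Its 12 miRNAs with at least 10 reads all had ratios above 1, but they too are parts of the reads by which the gene was picked. Of its reads, 55.1% lay in 1 stretch, chr10:24598162-24598506 on the plus strand, with 26 control and 212 DKO reads. The set 1 ratio of Ccn2 was 0.888 (0.682 to 1.14). Whether a site lies in an exon, an intron or a UTR was not analysed here.

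Among the lower genes, Sparc, a collagen-binding matrix glycoprotein and a known miR-29 target, went from 594 to 42 reads (0.0990, 0.0706 to 0.136), with 821 in the induced pool. Its stretch chr11:55395387-55395571 on the minus strand, where miR-29a-3p was the leading miRNA, held 445 control and 18 DKO reads, 72.8% of all reads on the gene. At equal miRNA composition the ratio of Sparc was 0.202 (0.144 to 0.276), so that the miRNA shares alone gave a factor of 0.491 and the gene was lower than control beyond it. In set 1 Sparc had a ratio of 0.460 (0.236 to 0.827).

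Other lower genes encode secreted or surface proteins. Lrp1, an endocytic receptor, went from 152 to 16 reads (0.147, 0.0822 to 0.247), and Ccbe1, a secreted protein needed for lymphatic growth, from 131 to 10 (0.107, 0.0501 to 0.203). Cdsn, corneodesmosin of the outer epidermis, went from 209 to 24 (0.161, 0.101 to 0.246), with 350 in the induced pool; its ratio was 0.278 (0.167 to 0.443) with each position counted once and 0.0800 (0.0377 to 0.151) without lane-shared reads. In set 1 Cdsn was higher in DKO (4.19, 1.70 to 10.7).

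The rest of the lower genes act inside the cell. Dock4, an activator of small GTPases, had 97 control and 10 DKO reads (0.144, 0.0671 to 0.277), and Slc25a13, the mitochondrial aspartate and glutamate carrier, 115 and 11 (0.134, 0.0651 to 0.249). Ero1a, an oxidase of the endoplasmic reticulum, had 184 and 26 (0.198, 0.126 to 0.299), Kdm7a, a histone demethylase, 212 and 30 (0.198, 0.131 to 0.291), and Samd5 181 and 14 (0.108, 0.0581 to 0.187). The lowest 2 among genes with at least 100 reads, LOC115490435 (179 and 8 reads) and Gm52861 (264 and 14), are different in kind. Nearly all of their reads, 99.5% and 100%, lay in 1 stack on the strand opposite the gene, led by miR-709. With each position counted once LOC115490435 had a ratio of 0.442 (0.159 to 1.08), which is not called, and Gm52861 0.301 (0.0892 to 0.816).

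The genes with the highest shares had ratios nearer to 1. The nuclear RNA Neat1 went from 1.48% to 1.21% (0.818, 0.779 to 0.859) and Malat1 from 0.475% to 0.357% (0.750, 0.685 to 0.821). Ahnak (0.904), Grip1 (0.912), Rbms1 (0.778) and Igf1r (1.20) were not called, nor was Foxp1 (1.48). Pard3, a polarity protein, went from 462 to 507 reads (1.54, 1.35 to 1.75), and Scd2, a fatty acid desaturase, from 446 to 514 (1.61, 1.42 to 1.84). For Scd2, where miR-27a-3p led at the main stretch, the ratio at equal composition was 1.22 (1.07 to 1.39), which is not called. Pard3 and Scd2 lay close to the 1.5-fold rule: with each position counted once they had ratios of 1.46 (1.28 to 1.66) and 1.48 (1.28 to 1.70), and Pard3 also lost its call after centring (1.49) and without miR-31-5p.

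**Figure D3:**
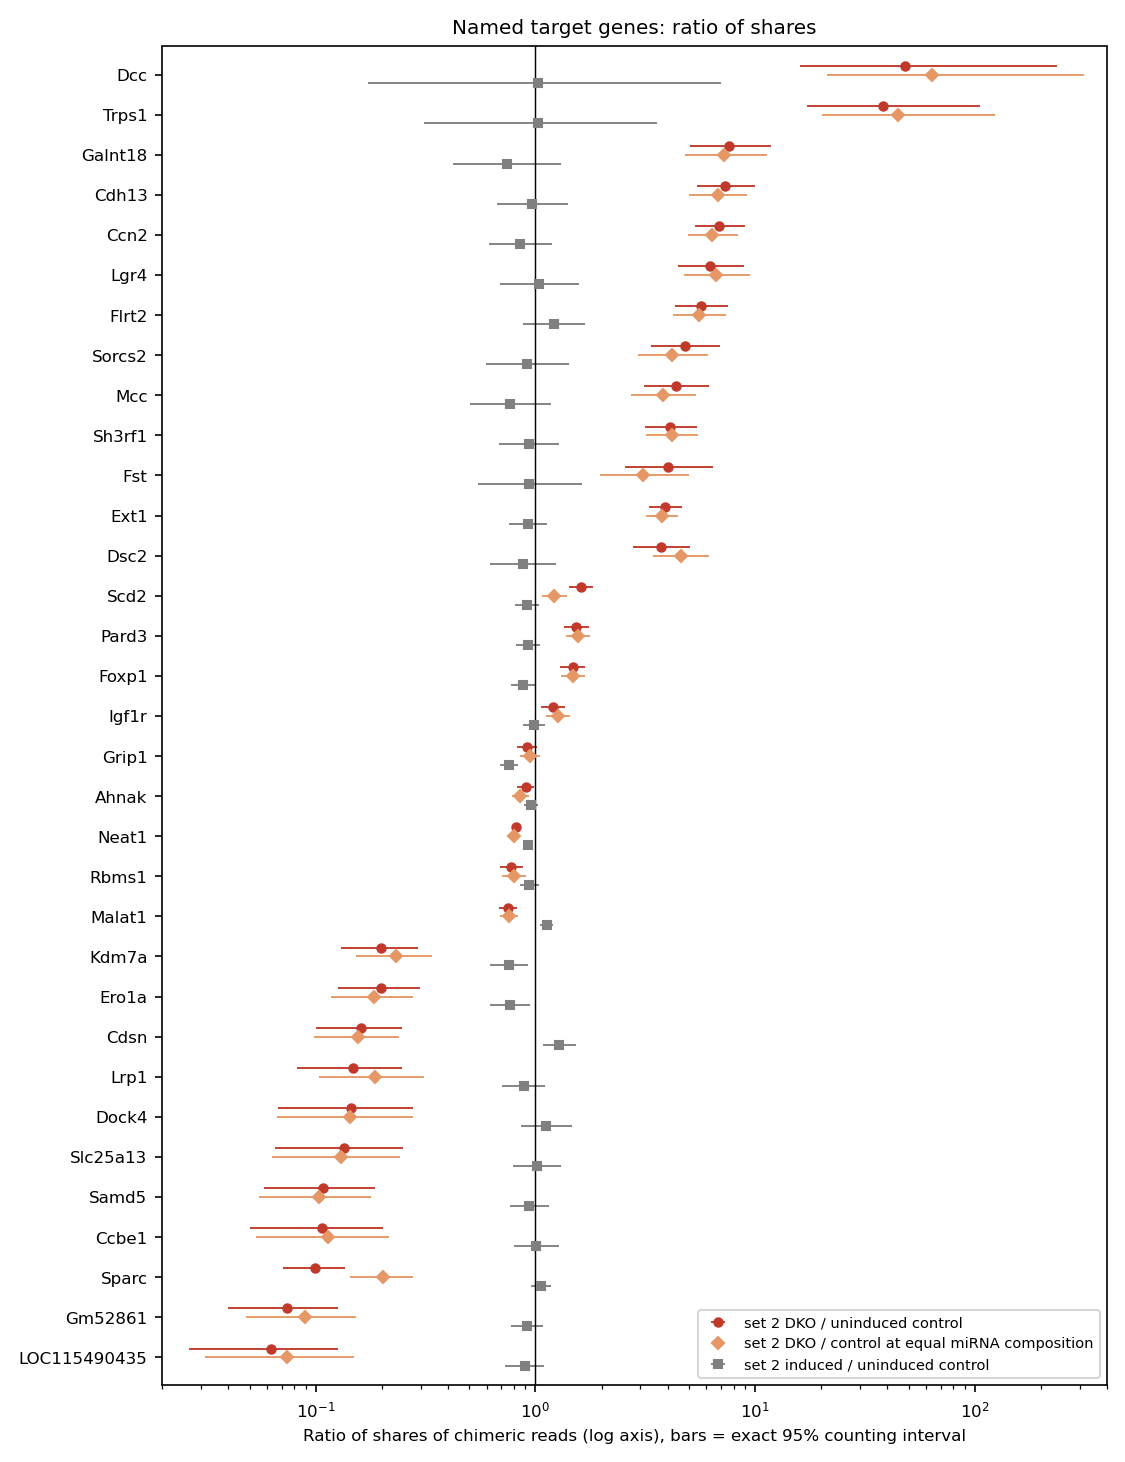
Ratio of shares for the named target genes on a log axis, with exact 95% counting intervals as bars. Red circles are DKO over uninduced control, orange diamonds the same at equal miRNA composition, and grey squares induced over uninduced control. Red and orange points lie close together except at Sparc (0.0990 and 0.202), and the grey squares stay near 1.

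Of 653 miRNA-gene pairs with at least 30 reads, 98 were higher in DKO (15.0%) and 198 lower (30.3%), with a median ratio of 0.790. With each position counted once, 461 pairs had enough reads, of which 77 were higher and 95 lower. miR-31-5p alone gave 224 of the pairs, of which 99 were lower and 6 higher, and its own share was lower in DKO. miR-27a-3p gave 78 pairs, 30 higher and 3 lower, and miR-205-5p 32 pairs, 14 higher and 1 lower. All 7 pairs of miR-29a-3p and all 4 of miR-29b-3p were lower, as were 17 of 31 pairs of miR-125b-5p. These miRNAs were themselves lower (0.316, 0.354 and 0.484), and miR-27a-3p and miR-205-5p higher (1.85 and 1.97). The minimum counts the reads of both pools, so pairs pass it mostly through the pool where their miRNA is high. The counts per miRNA are therefore not separate from the ratios of the miRNAs. Among the higher pairs, 73 of 98 had a miRNA called higher and 59 a gene called higher; among the lower pairs, 44 of 198 had a miRNA called lower and 107 a gene called lower.

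The largest pair ratio was that of miR-30c-5p on Ccn2, which went from 5 reads in control and 11 in the induced pool to 59 in DKO (16.5, 6.70 to 52.8), while miR-30c-5p over all targets had a ratio of 1.25 (1.17 to 1.34). The pair stood at 9.02 (3.51 to 29.5) with each position counted once and at 39.9 (10.5 to 338) without lane-shared reads. Of the reads of this pair, 85.9% lay at chr10:24598289-24598355. In set 1 the same pair had 159 control and 27 DKO reads (0.547, 0.350 to 0.826). miR-27a-3p on Ext1 went from 7 to 50 reads (10.0, 4.51 to 26.2), spread over 44 sites, and miR-31-5p on Ext1 from 17 to 42 (3.46, 1.93 to 6.48), although miR-31-5p itself was lower. miR-3470b on Ankrd11 went from 15 to 77 reads (7.19, 4.10 to 13.5), all at 1 site. miR-27a-3p on Pard3 went from 23 to 54 (3.29), miR-2137 on Gm36876 from 36 to 105 (4.09), miR-21a-5p on Efna5 from 20 to 38 (2.66) and miR-31-5p on Foxc1, a forkhead transcription factor, from 20 to 35 (2.45).

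Among the lower pairs, miR-669c-5p on Lrp1 went from 49 reads to 1 (0.0286, 0.000709 to 0.167), all at 1 site. miR-29a-3p on Sparc went from 310 to 11 (0.0497, 0.0246 to 0.0902) and miR-29b-3p on Sparc from 124 to 8 (0.0904, 0.0382 to 0.184), in both cases a lower ratio than that of the miRNA itself. miR-17-5p on Cdsn went from 95 to 9 (0.133, 0.0589 to 0.263), whereas miR-17-5p over all targets had a ratio of 1.08. The pair stood at 0.332 (0.140 to 0.701) with each position counted once and at 0.0355 (0.00422 to 0.132) without lane-shared reads. miR-31-5p on Tet2, a DNA demethylation enzyme, went from 98 to 10 (0.143, 0.0665 to 0.274), and on Mir100hg from 47 to 4 (0.119, 0.0312 to 0.326). miR-709 on LOC115490435 went from 170 to 8 and on Gm52861 from 260 to 14, with a ratio of 0.833 for miR-709 over all targets. With each position counted once these pairs stood at 0.773 (0.258 to 2.13) and 0.368 (0.107 to 1.03), neither of them called.

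Gene lists were read against the 15.8% of all genes higher, the 15.4% lower and the median of 1.02. As for pairs, the minimum counts the reads of both pools, so genes near it can pass mostly through the pool where they are high. This holds for the lists and for all genes alike. The members named from the lists are those with most reads or those called, the latter picked after their values were seen. The extracellular matrix list had the lowest median, 0.517: of 20 genes 11 had enough reads, 6 were lower and 2 higher. Its summed reads had a ratio of 0.770 (0.689 to 0.859) in set 2 and 1.05 (0.864 to 1.28) in set 1. By summed reads the list for epithelial to mesenchymal transition, which holds Sparc, stood lower, at 0.524 (0.464 to 0.590) in set 2 and 0.703 (0.531 to 0.918) in set 1. Col7a1, the anchoring fibril collagen, went from 165 to 26 reads (0.221, 0.140 to 0.335), Plod2, a collagen crosslinking enzyme, from 146 to 42 (0.403, 0.279 to 0.571), and Lamc1, a laminin chain, from 84 to 31 (0.517, 0.331 to 0.789). At equal miRNA composition 4 were lower and 2 higher, as Lamc1, at 0.666 (0.426 to 1.02), and Hspg2, which encodes perlecan, at 0.623 (0.356 to 1.05), were no longer called. Going the other way, Adamts1, a secreted protease, went from 11 to 77 reads (9.81, 5.19 to 20.5) and Ltbp1, which stores TGF-beta in the matrix, from 15 to 72 (6.72, 3.82 to 12.6). Thbs1, with 152 and 108 reads, stood at 0.995.

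Of 25 focal adhesion and actin genes 19 had enough reads, with 3 lower and 0 higher and a median of 0.796. Actn1, an actin crosslinker, went from 344 to 155 reads (0.631, 0.519 to 0.765), Flna from 127 to 55 (0.607, 0.434 to 0.839) and Itga2, the collagen-binding integrin subunit, from 54 to 3 (0.0778, 0.0156 to 0.240). Itgb1, with 200 and 107 reads, stood at 0.749 (0.587 to 0.952), and Myh9, with 195 and 108, at 0.776.

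Of 13 basal keratinocyte genes 11 were measured, 3 higher and 2 lower, with a median of 1.01. Krt14 (2.06, 1.65 to 2.57), Col17a1 of the hemidesmosome (163 to 241 reads; 2.07, 1.69 to 2.54) and Cdh3 (1.71) were higher. Itga3, an integrin subunit, was among the lower genes (151 to 47; 0.436, 0.307 to 0.609). Among 18 measured junction genes 3 were higher, namely Dsc2, Dsp (137 to 175; 1.79, 1.42 to 2.25) and Pard3, and 1 lower, Ctnnb1, which encodes beta-catenin (138 to 55; 0.558, 0.401 to 0.768), with a median of 0.940. At equal miRNA composition the desmosomal cadherin Dsc3 (0.617, 0.482 to 0.786) and Tjp1 of tight junctions (0.650, 0.425 to 0.978) were lower as well. Cdh1, E-cadherin, stood at 1.20 (0.927 to 1.55). Of 5 measured genes of activated keratinocytes, 1 was lower, Krt16 (94 to 43 reads, ratio 0.641, 0.436 to 0.929), while Krt6a was higher at equal miRNA composition alone (1.55, 1.21 to 2.00). Krt16 was low in the larger induced pool too, with 67 reads. The 8 genes of this list together stood at 1.02 times control in DKO and at 0.560 times control in the induced pool. The 19 differentiation genes had too few reads to measure one by one, 102 and 54 together (0.742, 0.523 to 1.04).

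Genes tied to the miR-200 family by earlier work were mixed. Of 26 commonly cited targets 13 were measured in other miRNAs' chimeras, 4 higher and 2 lower, with a median of 0.906. Jag1, a Notch ligand (85 to 115; 1.90, 1.42 to 2.54), Vldlr (84 to 108; 1.80, 1.34 to 2.42), Marcks (83 to 101; 1.70, 1.26 to 2.31) and Zfpm2 (21 to 29; 1.93, 1.07 to 3.57) were higher. Msn, which links membrane to actin (168 to 72; 0.600, 0.449 to 0.796), and Suz12 of the polycomb complex (137 to 47; 0.481, 0.337 to 0.674) were lower. At equal miRNA composition 4 were higher and 4 lower: Marcks, at 1.43 (1.06 to 1.94), was no longer called, while Qk (1.54, 1.10 to 2.16) was higher and Sec23a (0.522, 0.277 to 0.942) and Cfl2 (0.529, 0.287 to 0.937) were lower. In other miRNAs' chimeras Zeb1 had 0 reads in both pools, and so had Zeb2, Vim and Snai1. Chimeras of the miR-200 family itself are not in these counts. These genes, listed for epithelial to mesenchymal transition, were thus below what the other miRNAs' chimeras can show. Of the 22 genes of that transition list 6 were measured: Tgfbr1 was higher (44 to 50; 1.59, 1.04 to 2.44), Sparc lower and 4 not called. Fn1, fibronectin, had 5 control and 43 DKO reads (12, 4.78 to 39.0), under the minimum of 50, and Cdh2, N-cadherin, 39 and 5 (0.180, 0.0552 to 0.456).

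In the cell cycle list 9 of 19 were measured, 3 higher and 2 lower, with a median of 1.35. Myc (88 to 136; 2.16, 1.64 to 2.86), Cdk6 (98 to 145; 2.07, 1.59 to 2.71) and E2f3 (1.65, but 1.48 and not called at equal composition) were higher, while Cdkn1a, the p21 inhibitor (126 to 42; 0.467, 0.321 to 0.667), and Ccnd1, cyclin D1 (86 to 25; 0.407, 0.250 to 0.642), were lower. Growth factor and Notch signalling had 15 measured, 2 higher (Egfr 1.59, Fgfr2 1.54) and 2 lower (Tgfa 0.555, Met 0.595), with a median of 0.767, and Igf2r (0.527, 0.300 to 0.895) was lower at equal composition. The lipid and sterol list had 10 measured, 1 higher (Scd2) and 3 lower, among them Sc5d (0.627) and Hmgcs1 (0.628). None of the 3 genes named here was called at equal miRNA composition. The small RNA machinery had 8 measured, 0 higher and 1 lower, Tnrc6a (265 to 114; 0.603, 0.479 to 0.753), with a median of 1.13; Dicer1 (0.926) and Ago2 (1.43) were not called, though Ago2 was at equal miRNA composition (1.56, 1.16 to 2.11).

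**Figure D4:**
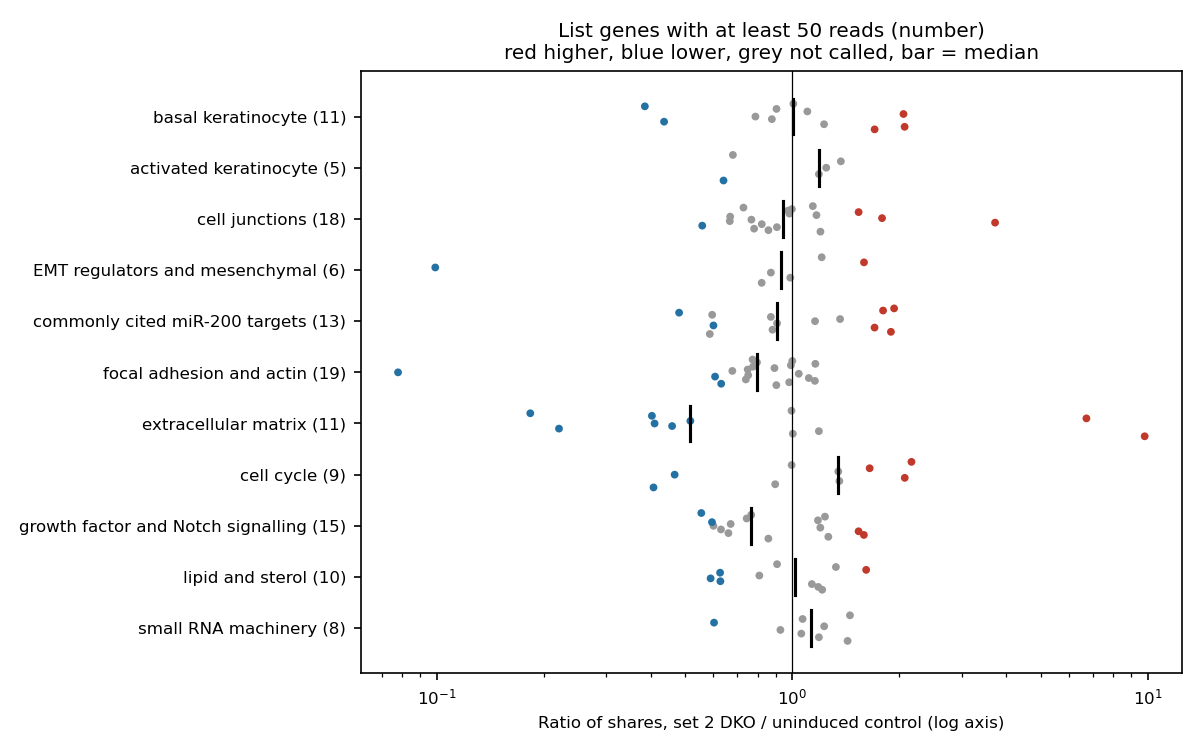
Ratio of shares, DKO over uninduced control on a log axis, for each gene with at least 50 reads in each list; the number of such genes is in parentheses. Red points are higher, blue lower and grey not called, and the black bar is the list's median. The extracellular matrix list has the lowest median (0.517) and points on both far sides, while most lists straddle 1.

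Genes that carry many miR-200 chimeras were set apart from the rest, to see whether other miRNAs took a larger share on them once the family was gone. Genes were ordered by the part of miR-200 in their chimeras in the induced pool, which is not in the ratio. In 34 genes with a part over 30% the median ratio in other miRNAs' chimeras was 0.829, with a middle range of 0.589 to 1.19; it was 1.01 in 92 genes at 20 to 30%, 0.998 at 10 to 20%, 0.993 at 5 to 10% and 0.861 in 338 genes at up to 5%. Over all 1639 genes ordered this way it was 0.967. The median was lowest at both ends of this order. Ordered by the set 1 control pool instead, genes over 30% had a median of 1.24, on 5 genes, and those at 20 to 30% 0.907, on 10 genes, against 1.06 over all 1371.

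The ratio also differed between chromosomes, a pattern looked for after values were seen. On chromosome 8 the median of 107 genes was 1.35, with 80.4% of genes above 1, and every one of 7 windows of 20 Mb had a median between 1.29 and 1.53. Chromosome 13 had a median of 1.27 over 85 genes and chromosome 5 of 1.26 over 130 genes. At the other end, chromosome 12 stood at 0.871, chromosome 6 at 0.877 and chromosome 7 at 0.878, where 28 of 100 genes were above 1. In the induced pool the 20 chromosome medians lay between 0.939 and 1.06. At equal miRNA composition chromosome 8 stood at 1.43, chromosome 13 at 1.26, chromosome 5 at 1.17 and chromosome 7 at 0.852. In set 1 the median of chromosome 8 was 0.835 and that of chromosome 13 was 1.12. The number of chromosome copies in these cells is not analysed here, and its part in the ratios was not tested.

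**Figure D5:**
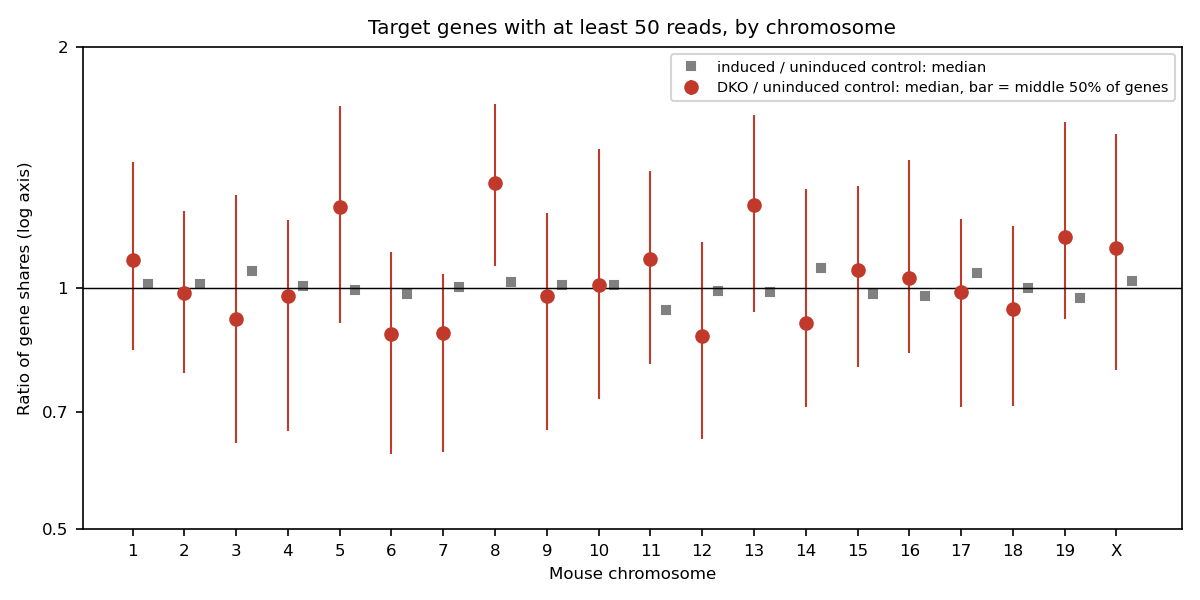
Median ratio of gene shares by mouse chromosome on a log axis, for genes with at least 50 reads. Red circles are DKO over uninduced control, with bars for the middle 50% of genes, and grey squares are induced over uninduced control. Chromosome 8 is highest at 1.35 and chromosome 12 lowest at 0.871, and the grey squares lie between 0.939 and 1.06.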

How the data were processed

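Argonaute 2 complexes were immunoprecipitated from crosslinked cells, per the labels' protocols. The submitters' processing notes list Novoalign, cutadapt and bedtools without versions, and the mm10 build. The deposited values are positions, another kind of unit than counts: each line is 1 chimeric read with target start, end and strand, a 4-base barcode and a miRNA name, the libraries of a group pooled. No source used here says how amplified copies were collapsed; within a file no entry repeats position, strand, miRNA and barcode.

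Reads were counted with Python 3.11.15, pandas 2.3.3 and scipy 1.17.1. A target was assigned by its midpoint to a RefSeq gene span (GRCm38.p6); mitochondrial, structured RNA and miRNA genes came first and were not named. Ratios have conditional exact intervals, run on simulated independent counts, which is the model these intervals assume. The simulation held no stacked reads and no spread between libraries, so it says nothing about either. Mature sequences matched 189 of 254 miRNAs. A floor of 3 reads is 0.00102% of control and 0.00143% of DKO.

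Members, lists and rules were chosen with earlier results of these data known. Named were the 10 miRNAs and 10 genes of highest share, the 10 miRNAs (at least 200 reads), 12 genes (at least 100; 8 at equal composition) and 8 pairs (at least 50; 6 over the miRNA) of largest ratio per direction, and list members with most reads. Alternatives covered totals, duplicates, lane-shared reads, the control pool, strand, minimums and fold. Some items are not reported here.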

Additional observations from a re-analysis of the deposited data

Results flagged for a closer look

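DKO was compared with control in both sets, and 19 of 150 miRNAs, genes and pairs named here had intervals on opposite sides of 1 in the sets. Many of the 150 were named for their large set 2 ratios or after values were seen. The same count over all features was not made, so whether 19 is many or few cannot be said. Each side is 1 pooled ratio, so the difference between the sets was not tested, and the sets differ in control cells and sequencing run as well. Among abundant miRNAs, miR-31-5p stood at 0.688 in set 2 and 1.18 (1.13 to 1.24) in set 1, miR-21a-5p at 0.852 and 1.25 (1.17 to 1.32), and let-7a-5p at 0.898 and 1.28 (1.16 to 1.41). The median of miRNAs with at least 500 reads was 0.956 in set 2 and 1.24 in set 1. These set 1 values lie close to the latter, as does that of miR-182-5p below. The ratios were not centred on these medians for the count of 19. miR-712-5p stood at 3.36 and 0.705 (0.506 to 0.964), miR-193a-3p at 0.301 and 1.34 (1.15 to 1.56), miR-466f at 0.41 and 2.41 (1.77 to 3.27), and miR-669c-5p at 0.483 and 3.79 (2.81 to 5.12).

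Among target genes, Galnt18 stood at 7.6 in set 2 and 0.485 (0.232 to 0.921) in set 1, and Cdh13 at 7.32 and 0.445 (0.251 to 0.742). Rbms1 stood at 0.778 and 1.56 (1.22 to 1.98), and Cdsn, the corneodesmosin gene, at 0.161 and 4.19 (1.7 to 10.7). The pair of miR-30c-5p with Ccn2 stood at 16.5 and 0.547 (0.35 to 0.826). Among features named from lists, clusters or pairs, miR-182-5p stood at 0.648 and 1.23 (1.1 to 1.38), miR-3470b at 1.21 and 0.531 (0.504 to 0.559), Efna5 at 1.44 and 0.731 (0.565 to 0.936), Cdkn1a at 0.467 and 5.24 (2.7 to 10.4) and Krt16 at 0.641 and 3.87 (1.53 to 9.99). In set 2 Krt16 had 94 reads in control and 67 in the larger induced pool. miR-99a-5p stood at 56.7 in set 2 and had 14 control and 0 DKO reads in set 1, and Zfpm2 stood at 1.93 and had 17 and 0 reads in set 1, with upper bounds of 0.971 and 0.781.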

How the results depend on the processing

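Counts moved by over 1.5 times mainly with the call rule. With a minimum of 20 reads, genes higher and lower numbered 574 and 509 (543 and 527 at equal miRNA composition) and pairs 195 and 330. With a minimum of 200 reads (100 for pairs), miRNAs numbered 25 and 31, genes 67 and 57 (61 and 62 at equal composition) and pairs 10 and 33. With a minimum of 2-fold, miRNAs numbered 23 and 27 and genes 153 and 181 (156 and 174), and with no minimum fold miRNAs numbered 79 and 86. With each position counted once 77 pairs were higher and 95 lower of 461, and without miR-31-5p 108 were lower. The other counts stayed within 1.5 times, also with the induced pool as control, with lane-shared reads left out and with targets on the gene's strand only. The strand rule could act only on genes of known strand, which held 78.8% of protein-coding target reads. The strands of Dcc, Trps1, Cdh13, Ccn2 and Ext1, among others, were not known, so it could not change them. The medians of the gene lists were not run under these alternatives, but the ratios of their summed reads were. Together with the ratios of named features and the medians by miR-200 part and chromosome, 1025 values stayed within the interval or range of the reported value. Another 209 moved beyond it, and 0 called values changed direction. Among the 1025 and the 209 together, 12 values lost their call, some of them while within the reported interval. They included those of Pard3, Scd2 and the miR-709 stacks, given above, and Pard3 at equal composition (1.49 with positions counted once). The others were the seed of miR-182 (0.692 with the miR-200 family in the totals), the seed UAUAAUA (1.42) and the miR-298 and miR-296 cluster (0.707), the last 2 against the induced pool. Another 35 called values moved by over 1.5 times and kept their call, 19 of them without lane-shared reads: miR-196b-5p then stood at 176, miR-712-5p at 6.46 and miR-31-5p on Tet2 at 0.0384 (0.309 with positions counted once). Against the induced pool miR-27a-3p on Ext1 stood at 15.2 and miR-3470b on Ankrd11 at 4.68. The chromosome alternatives were added after the data were seen. The median of chromosome 8 stayed between 1.33 and 1.43 and that of chromosome 7 between 0.803 and 0.871. Centring pairs on those with at least 500 reads gave no value, as too few reach it. No paired analysis was possible because each group is 1 pooled list without library names; for the same reason no replicate could be left out.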

Other observations

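By kind of target, reads on mitochondrial RNA made up 9.44% of control and 7.59% of DKO chimeras (ratio 0.804, 0.789 to 0.820), and 9.59% of the induced pool. Reads on miRNA genes made up 0.980% of control, 0.621% of the induced pool and 1.27% of DKO (DKO over control 1.30, 1.23 to 1.37). Protein-coding genes held 74.8% and 77.4% of control and DKO reads, and noncoding RNA genes 3.61% and 3.38%.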
